A study of Mus musculus with 6 samples.

Results

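The 24 h array of a 4-hydroxytamoxifen (4-OHT) time course was set against the arrays at 8 and 12 h, to read which transcripts kept changing, which settled and which went back toward their early level after the main shift. The cells were mouse E14 embryonic stem cells carrying Snail-ER, the transcription factor Snail joined to a ligand-responsive receptor domain, and 4-OHT was added to move the fusion into the nucleus. Every array came from this line in serum and LIF, including the 0 h array, and the labels do not say whether the line is 1 clone. A single array was made at each of 6 times, 0, 2, 4, 8, 12 and 24 h. Nothing in the labels says that they came from separate cultures, and no untreated cells kept for 24 h were analysed here, so 4-OHT and hours in culture cannot be told apart.

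A probe was read where its normalized intensity reached 100 on at least 1 of the 3 late arrays. This held for 9277 of 45281 probes. Of these, 8069 had 1 gene symbol, and the brightest probe of each gene gave 5869 genes. All differences are on a log2 scale after adding 16 to the intensity, so they understate the change of dim genes. The early level is the mean of the 0, 2 and 4 h arrays on that scale. Intensities are compared within a probe only.

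Snail is a zinc finger repressor that binds a core E-box and is best known for turning down Cdh1 when epithelial cells become migratory, as at gastrulation. Embryonic stem cells in LIF express naive pluripotency factors such as Nanog, Esrrb, Klf2 and Klf4. On their way to lineage entry they pass through a primed, epiblast-like state marked by Fgf5, Pou3f1 and Dnmt3b, in which Pou5f1 is still expressed.

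The late samples carried the markers of their label. All 9 embryonic stem cell markers were detected on all 6 arrays, with summed intensities of 31862, 30623 and 34529 on the 8, 12 and 24 h arrays. Of 7 fibroblast markers, 1 was detected at 8 h and 2 at 12 and 24 h, and Col1a1 was undetected on all arrays. The 11 trophectoderm markers summed to 818, 774 and 1208 on the same arrays, with 4, 7 and 8 of them detected. This sum includes Id2, at 159, 109 and 324, and Tfap2c, at 131, 125 and 194. Cdx2 was undetected throughout, while Gata3 was detected at 24 h alone, at 27.3, and Eomes read 36.6, 51.4 and 56.8. The 11 primitive endoderm markers summed to 354, 391 and 384 with 2, 5 and 4 detected, and Gata6, Gata4 and Sox17 were undetected throughout. The 9 mesoderm and primitive streak markers summed to 69.6, 89.9 and 113 with 0, 1 and 2 detected. Their part in the results was not tested, and in these bulk samples more cells of a type and more RNA per cell cannot be told apart. The brighter of the 2 Snai1 probes read 84.9 at 0 h and 23.4, 18.6 and 19.8 at 8, 12 and 24 h, and whether it matches the fusion transcript is not given in the sources used here. The arrays differed in background spread. The SD of the background was 15.99 at 8 h but 4.72 at 12 h and 4.73 at 24 h, and the dimmest detected signal was 62.0, 18.5 and 18.9. The detected counts above are therefore not comparable between the 8 h array and the later ones. Krt18, at 37.1 and 37.5, and the fibroblast marker Dcn, at 33.6 and 33.8, counted as detected at 12 h but not at 8 h.

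The main shift was read as the difference of the 8 and 12 h arrays from the 0, 2 and 4 h arrays. This does not locate its start, and some genes had changed by 4 h, such as Bmp4 at 860, 597 and 494. By the fold rule used here, a gene was shifted when its 8 h and 12 h values both stood at least 2-fold from the early level in the same direction. This gave 60 genes on the higher side, 1.02% of those read, and 78 on the lower side, 1.33%. With 1 array per time these classes are descriptions and carry no test. Shifted genes were then divided by where the 24 h array stood. A gene kept changing when 24 h lay at least 1.5-fold beyond both 8 and 12 h, settled when it lay within 0.32 (log2) of both, and returned when it lay at least 1.5-fold back from both. Settled genes were the most frequent of these, 65 genes or 1.11% of all read, with 26 on the higher and 39 on the lower side. Only 8 genes kept changing, 0.136%, all on the higher side, and 7 returned, 0.119%, of which 6 were on the lower side. The remaining 58 shifted genes lay in between.

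**Figure D1:**
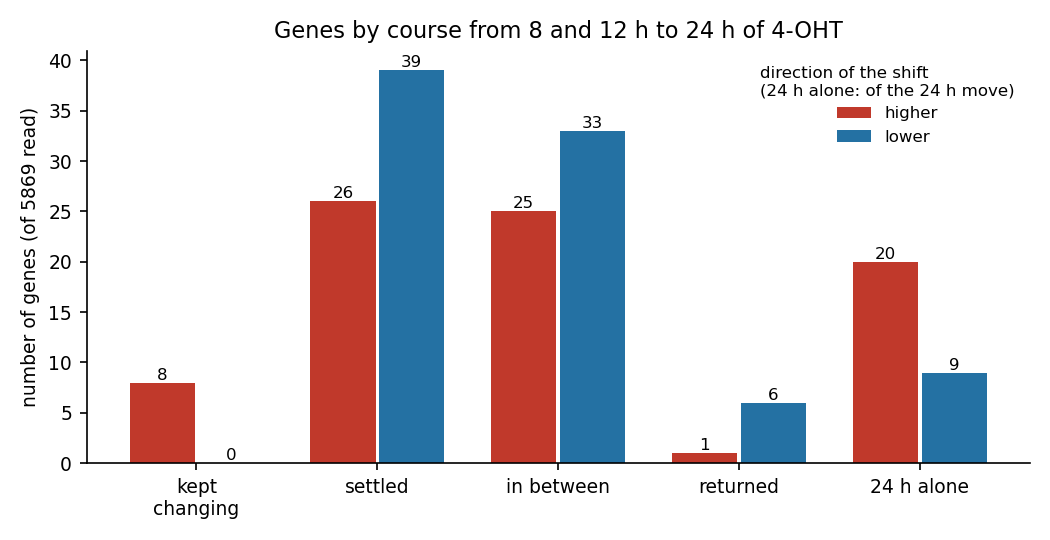
Number of genes (y axis) in each class (x axis), in red for genes shifted higher and in blue for genes shifted lower at 8 and 12 h; for the class 24 h alone the colour gives the direction of the 24 h value. The tallest bars are the settled genes (26 higher, 39 lower), and the kept changing class has 8 genes higher and 0 lower.

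For 4 genes shown next, the RefSeq sequence of the 250 bases before the annotated start (build GRCm38.p6) is printed to show where Snail's core E-box occurs or is absent. Tfcp2l1, Bmp4 and Lgals3 belong to the lower settled genes, and Anxa2 is a gene that returned. Capitals mark CAGGTG, or CACCTG where the motif lies on the other strand. Tfcp2l1 is on chr1:118627695-118627944, plus strand, Bmp4 on chr14:46390670-46390919, minus strand, Lgals3 on chr14:47373610-47373859, plus strand, and Anxa2 on chr9:69453433-69453682, plus strand.
Tfcp2l1: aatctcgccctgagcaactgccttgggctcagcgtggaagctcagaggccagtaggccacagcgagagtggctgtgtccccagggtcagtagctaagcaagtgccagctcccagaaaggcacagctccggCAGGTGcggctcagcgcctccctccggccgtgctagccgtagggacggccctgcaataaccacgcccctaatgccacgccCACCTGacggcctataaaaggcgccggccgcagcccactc
Bmp4: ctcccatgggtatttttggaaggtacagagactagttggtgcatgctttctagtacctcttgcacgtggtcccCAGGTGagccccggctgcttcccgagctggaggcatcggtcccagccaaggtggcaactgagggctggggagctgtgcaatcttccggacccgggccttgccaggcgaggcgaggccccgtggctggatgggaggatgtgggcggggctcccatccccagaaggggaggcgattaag
Lgals3: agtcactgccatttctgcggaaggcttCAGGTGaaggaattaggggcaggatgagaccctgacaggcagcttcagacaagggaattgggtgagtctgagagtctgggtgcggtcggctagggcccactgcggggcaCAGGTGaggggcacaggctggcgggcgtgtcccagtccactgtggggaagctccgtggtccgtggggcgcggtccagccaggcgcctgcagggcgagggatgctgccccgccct
Anxa2: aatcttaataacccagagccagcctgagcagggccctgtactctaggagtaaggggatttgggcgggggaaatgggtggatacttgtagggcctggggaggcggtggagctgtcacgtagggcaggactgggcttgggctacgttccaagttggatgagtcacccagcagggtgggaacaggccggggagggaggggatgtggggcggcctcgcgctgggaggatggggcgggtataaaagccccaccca
The motif occurred 2 times before the start of Tfcp2l1, at 120 and 40 bases, 1 time in Bmp4, at 177 bases, and 2 times in Lgals3, at 223 and 114 bases. No match to these letters was found in Anxa2. The 300-base windows, which run to 50 bases after the start, held the motif on either strand in 961 of the 4866 genes read that have a window, or 19.7%, and in 20.2% of all windows of the table. Among the genes of the settled class it was present in 14 of 31 lower genes and in 4 of 22 higher genes. Over all shifted genes with a window it was present in 19 of 61 lower and 7 of 48 higher genes. The lower settled genes Esrrb, Acss1, Pfkp and Liph, named below, had no match. Of the 9 genes lower at 24 h alone, 5 held it. Of the 4 kept changing genes with a window none held it, and of the 3 returned genes on the lower side with a window 1 did, Cpsf4l, with 3 matches. These shares describe letters in a window and were not tested.

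The 39 genes that settled on the lower side included 6 of the naive pluripotency list. Tfcp2l1, a transcription factor of the naive state that acts downstream of LIF, read 1623, 1195, 1076, 302, 276 and 296 in order of time. Esrrb, an orphan nuclear receptor of the same network, read 6566, 5130, 5520, 1580, 1543 and 1641. Both stood on the 24 h array where they had been at 8 h, 4.15-fold and 3.45-fold below the early level.

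Nanog read 3769, 2586, 2833, 1235, 1147 and 1402, and Zfp42, a zinc finger marker of undifferentiated cells, read 3749, 2454, 2461, 1048, 1019 and 960. In both genes all late values lay below all early ones, which the settled rule makes likely. Klf5 and Nr5a2 were also settled, at 997 and 191 on the 24 h array. The secreted factor gene Bmp4 read 860, 597, 494, 153, 138 and 166. Lgals3, which encodes the lectin galectin-3, read 1165, 876, 836, 219, 222 and 274. Wfdc2, Acss1, Pfkp and Liph completed the 8 lower settled genes with the largest shift, between 2.91-fold and 4.19-fold at 8 and 12 h.

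Of the 17 genes on the naive pluripotency list, 11 were read, and 10 of those were shifted lower. On the 24 h array 6 of the 10 were settled and 4 lay in between, Klf2, Klf4, Tbx3 and Tcl1. Klf2 read 541, 518 and 691 at 8, 12 and 24 h against 2880 to 3718 early, and Klf4 read 129, 105 and 175 against 333 to 401. The median share of the shift recovered at 24 h was 16.1% over the shifted genes of the list. Of the 11 genes, 9 stood above both their 8 and 12 h values at 24 h, beside 34.6% of all genes read, and none was called by the limma contrast described below. Tbx3 and Tcl1 passed the reading limit through the 24 h array alone, so they had to stand above both. They count among the 9 and enter the median of 16.1%. Gbx2, a homeobox gene of the list that was not shifted, read 529, 784, 559, 497, 404 and 878, so that its 24 h value was the highest of the 6.

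Most general pluripotency genes read were not shifted. Pou5f1, the core pluripotency factor Oct4, read 4383, 4046, 3920, 4400, 5083 and 6189. Its 24 h value was 1.41-fold that at 8 h and 1.22-fold that at 12 h, with an adjusted p of 0.23 in limma. Of 11 genes read, 1 was shifted, Fbxo15, and 9 stood above both earlier late arrays at 24 h, beside 34.6% of all genes read. Fbxo15, an F-box protein gene expressed in undifferentiated cells, read 1744, 1626, 1677, 578, 459 and 785, which recovered 35.4% of its shift. Kit fell outside the genes read because it stayed under 100 on the late arrays, at 73.6, 83.7 and 96.9 after 645, 426 and 287 early.

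Metabolic genes of the hypoxia and glycolysis list were lower at 8 h and stayed near that level. Pfkp, a platelet-type phosphofructokinase, read 1182, 1349, 1038, 391, 319 and 330. Pdk1, the kinase that holds back pyruvate dehydrogenase, read 1185, 1136, 931, 446, 467 and 436, and the glucose transporter gene Slc2a3 read 6023, 5773, 5001, 2167, 2273 and 2086. These 3 were the shifted genes among 11 read, all 3 settled, and no gene of the list had an unadjusted limma p under 0.05. The extracellular matrix gene Fn1 and the phosphatase gene Dusp1 were lower and settled too, at 343 and 374 on the 24 h array.

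Genes that settled on the higher side included markers of the primed epiblast. Pou3f1, the POU factor Oct6, read 140, 278, 233, 1033, 1008 and 959. Fgf5, the growth factor used to mark primed cells, read 24.0, 32.5, 42.5, 186, 204 and 212. Its 0 and 2 h values were below detection. Sall2 read 192, 233, 249, 886, 882 and 910, and Dnmt3b, a de novo DNA methyltransferase, read 6823, 8171, 8209, 16287, 16155 and 14853. In these 4 genes the late values lay close together, as the settled rule requires. They did not overlap the early ones, which the rule makes likely.

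Of 9 primed epiblast genes read, these 4 were shifted and all 4 settled. The list median stood 0.73, 0.76 and 0.95 above the early level at 8, 12 and 24 h, while the median of all genes read was within 0.04 at each of these times. Lef1, an HMG-box factor of Wnt signalling on this list, moved at 24 h alone, at 93.1, 82.4 and 162 on the late arrays. It was read through the 24 h array alone. Other higher settled genes with large shifts were Zfp608, Igdcc4, Spata45, the imprinted gene Dlk1 and Zfhx3, whose 24 h values were 241, 464, 128, 126 and 465.

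**Figure D2:**
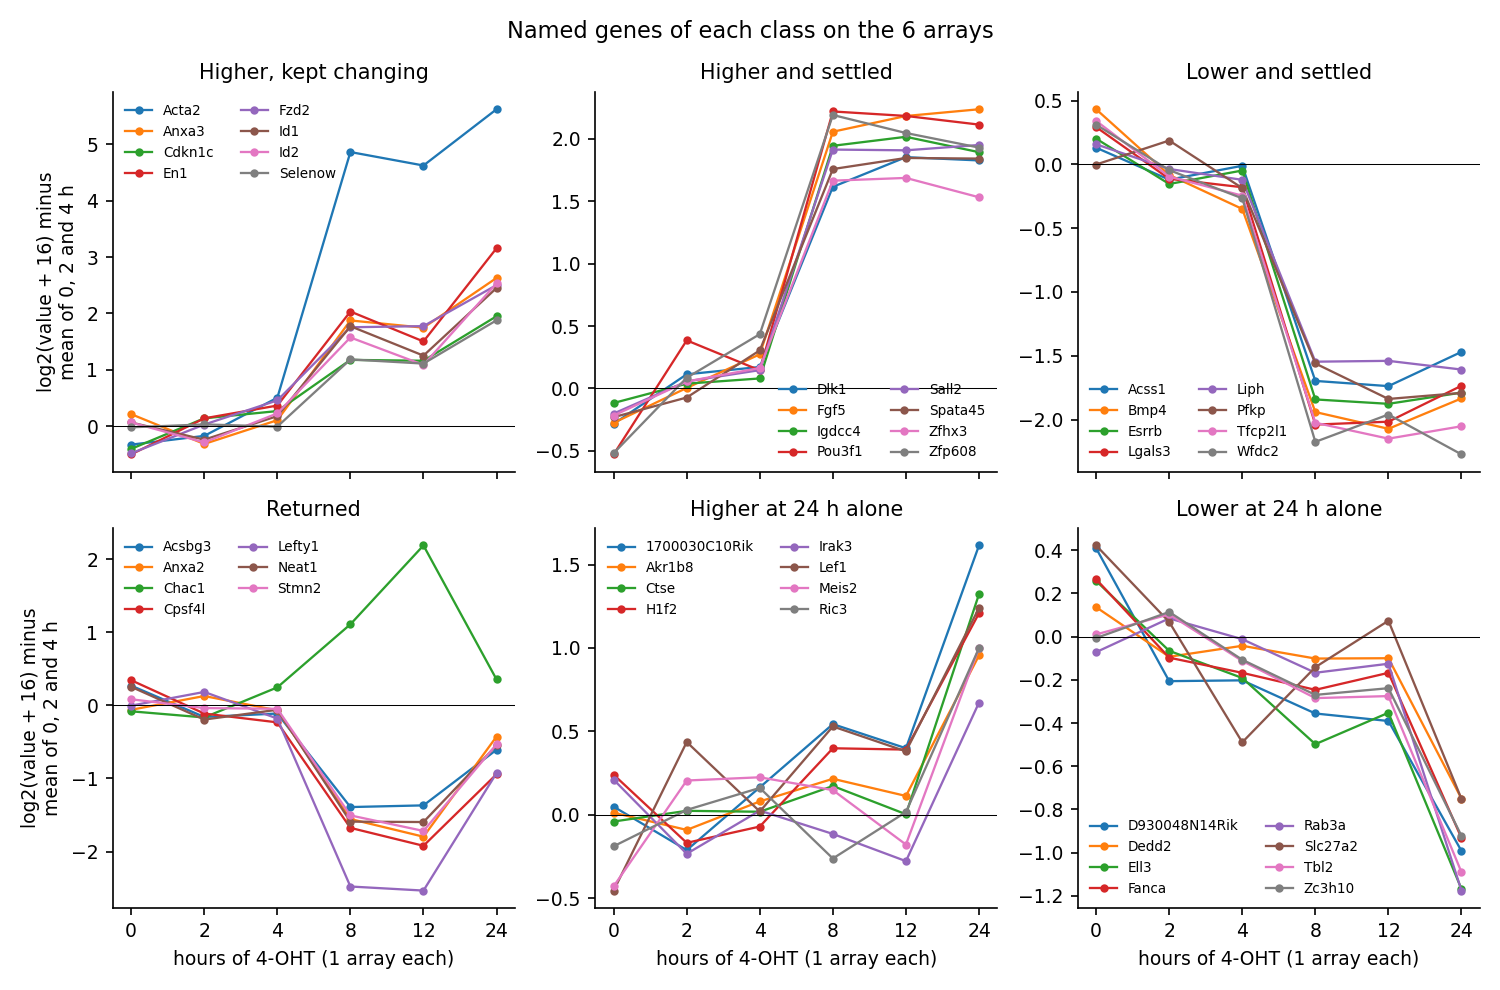
Difference of log2(value + 16) from the mean of 0, 2 and 4 h (y axes, scaled separately) against hours of 4-OHT (x axis, equal steps, 1 array each) for the genes named in each class. By the rules of their classes, the settled panels are flat from 8 to 24 h and the 8 kept changing genes are highest at 24 h. Lefty1, of the returned class, climbs back from its 8 and 12 h values.

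Genes that kept changing were few. Id1 and Id2 encode inhibitors of bHLH transcription factors and are standard targets of BMP signalling. Id1 read 236, 188, 257, 809, 558 and 1304. Id2 read 45.5, 32.1, 52.8, 159, 109 and 324, with the 0 and 2 h values below detection. In both genes the 12 h array was lower than the 8 h array and the 24 h array was the highest, 2.30-fold and 2.73-fold above 12 h.

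Id3, the third of this family on the array, read 20.4, 40.3, 43.2, 97.7, 65.8 and 242, and passed the reading limit through the 24 h array alone. The BMP and TGF-beta target list had 4 genes read, and all 4, Id3 by way of the reading limit, stood above both 8 and 12 h at 24 h, beside 34.6% of all genes. The fourth was Bmp4, which settled on the lower side. The limma adjusted p-values were 0.097 for Id1, 0.11 for Id2 and 0.14 for Id3, so none passed the threshold of 0.05. A second Id2 probe gave 56.1, 42.5 and 103 at 8, 12 and 24 h. It passed the reading limit through the 24 h array alone, so it had to be highest there. Its shift at 8 and 12 h was 0.32, against 1.33 for the first probe.

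Acta2, smooth muscle actin, was at or near 0 on the early arrays, at 0.05, 1.88 and 12.6, and then read 571, 482 and 978. Because it was undetected on all 3 early arrays, its 24 h level was at least 14.6-fold above their mean, with the detection limit of each early array in place of its value. From 12 to 24 h it differed 2.00-fold, with a limma adjusted p of 0.27, and 2 further Acta2 probes that were read went the same way. En1, a homeobox gene of the midbrain and hindbrain, read 1.97, 12.0, 16.8, 88.2, 56.1 and 211, which by the same reckoning is at least 3.33-fold above the early mean at 24 h. Anxa3, a calcium-dependent phospholipid-binding annexin, read 18.9, 8.21, 16.4, 94.6, 85.2 and 171. En1 and Anxa3 reached 100 at 24 h alone. So did the 2 further Acta2 probes, whose direction at 24 h was therefore fixed by the reading limit.

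The imprinted gene Cdkn1c, whose product p57 restrains the cell cycle, read 212, 317, 348, 667, 659 and 1151. Fzd2, a Wnt receptor gene, read 31.8, 52.1, 75.6, 209, 213 and 363, and the selenoprotein gene Selenow read 120.3, 125, 122, 298, 283 and 493. None of the 8 genes of the class was called by limma.

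Among 10 imprinted genes read, 4 were shifted, all higher. Cdkn1c kept changing and Dlk1 settled. Igf2, a fetal growth factor, read 18.2, 38.2, 28.7, 499, 441 and 700, and Peg3 read 201, 213, 257, 490, 547 and 386. Both of these lay in between, with Igf2 above and Peg3 below its 8 and 12 h values at 24 h.

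Genes that returned were led by Lefty1, a secreted antagonist of Nodal. Lefty1 read 457, 522, 402, 69.1, 65.9 and 234. The 24 h value stood 2.93-fold above 8 h and 3.05-fold above 12 h but still 1.90-fold below the early level, so that 63.0% of the shift was recovered. Lefty2, its neighbour in function, was not among the genes read and gave 257, 262, 188, 89.3, 96.5 and 85.6, with no such step at 24 h.

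Anxa2, an annexin linked to membranes and actin, read 791, 903, 787, 270, 226 and 610, a recovery of 74.5%. Stmn2, a microtubule-destabilising stathmin known from neurons, read 1213, 1114, 1107, 393, 337 and 785. Neat1, the long noncoding RNA of paraspeckles, read 987, 719, 791, 263, 262 and 559.5. In all 3 genes the 24 h value lay between the mid and the early arrays and overlapped neither. The gap from the mid arrays is required by the rule for returned genes. Acsbg3 and Cpsf4l recovered 56.0% and 47.6% of their shift, with 24 h values of 243 and 185. On the higher side the single returned gene was Chac1, a glutathione-degrading enzyme induced by ATF4, which read 37.5, 34.5, 51.2, 106, 242 and 56.4.

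At 24 h, 58 of 78 genes shifted lower stood nearer to their early level than at 8 and 12 h, with a median recovery of 18.2%. Of the genes shifted higher 31 of 60 did, with a median of 0.77%. Of the lower genes 6 recovered 50% or more and of the higher genes 1 did. The 8 and 12 h arrays enter both the shift and the recovery, so the shift and the recovery are not independent. The reading limit also bears on these counts, since 6 lower genes, among them Lefty1, Tcl1 and Tbx3, and 3 higher genes were read through the 24 h array alone. Without these, 52 of 72 lower and 31 of 57 higher genes were nearer, with medians of 14.6% and 3.97%. With the limit set on any of the 6 arrays, which keeps genes that stayed low, the counts were 108 of 152 and 31 of 60, with medians of 14.3% and 0.77%. These limits, and the unshared arrays that follow, were chosen after the data were examined. When the shift was taken from the 8 h array and the late step from 12 to 24 h, 65 of 94 lower genes and 49 of 92 higher genes stepped toward the early level, while over all 5869 genes 2719 stepped up and 3135 down. With the shift from the 12 h array and the step from 8 to 24 h, the counts were 68 of 123 and 43 of 95, beside 2736 up and 3126 down over all genes. The difference between lower and higher genes was not tested, since genes are not replicates.

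**Figure D3:**
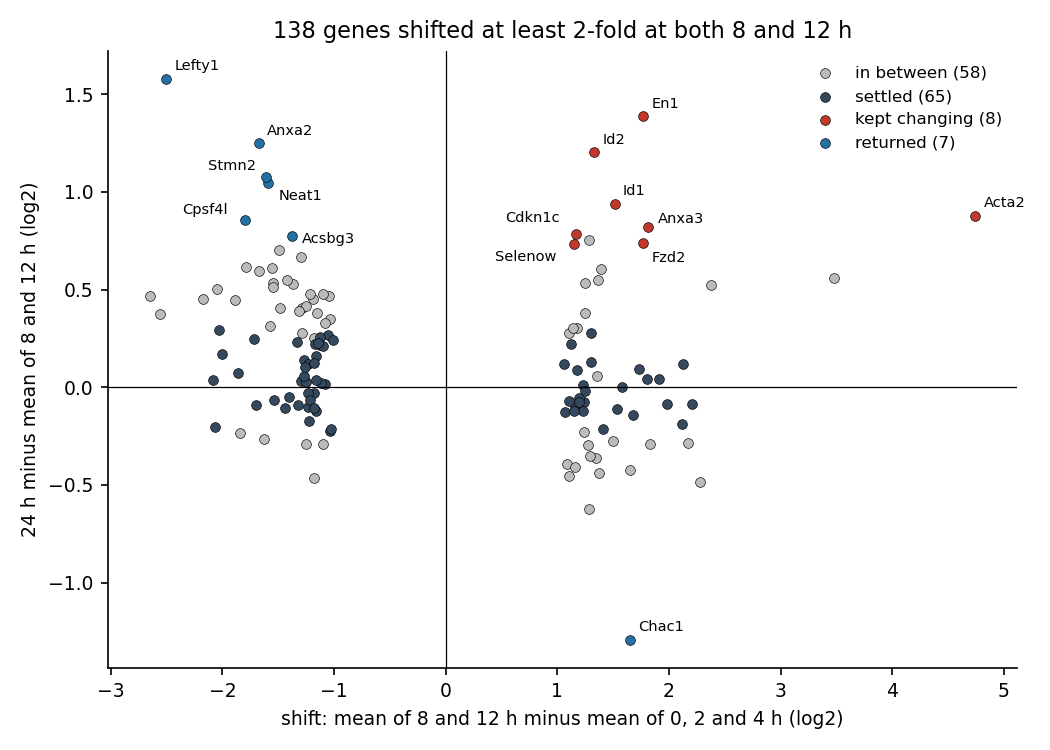
Each point is 1 of the 138 shifted genes; the x axis gives the shift (mean of 8 and 12 h minus the mean of 0, 2 and 4 h, log2) and the y axis the 24 h value minus the mean of 8 and 12 h (log2), with the 8 and 12 h arrays entering both axes. The 6 returned genes on the lower side lie at the upper left, led by Lefty1, Chac1 lies alone at the lower right, and the 8 kept changing genes lie at the upper right.

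A test across genes was possible only by borrowing spread from arrays of neighbouring times. In limma, 3 means were fitted, for 0, 2 and 4 h, for 8 and 12 h, and for 24 h. The spread within the first and second of these includes real change between their times, and the lone 24 h array was assumed to vary like the others. Of 5869 genes, 10 were higher at 24 h than at 8 and 12 h, 0.17%, and 4 were lower, 0.0682%, at an adjusted p under 0.05. Dropping the 12 h array left 1 call, Lefty1. Dropping the 8 h array left 4, Lefty1, Anxa2, Stmn2 and S100a6, and dropping the 0 h array gave 91. Dropping the 4 h array ended the calls of Dnmt3l and Mt1 among the 14. Unadjusted p-values under 0.05 were found for 729 genes.

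Lefty1 had the smallest adjusted p, 0.0012 in limma, with a difference of 1.58 ± 0.17 (SE, log2). It reached the reading limit of 100 through the 24 h array alone, the array on which it was high, and was the only called gene of which this holds. With no reading limit its adjusted p in limma was 0.038. It was called without each of the other 5 arrays in turn, with adjusted p-values up to 0.027. Anxa2 rose by 1.248 ± 0.15 (adjusted p = 0.0026 in limma), Stmn2 by 1.08 ± 0.14 (0.0046) and Neat1 by 1.05 ± 0.17 (0.016), which makes 4 of the 7 returned genes called. Leaving out the 12 h array raised these 3 above the threshold, at 0.070 for Anxa2 and Stmn2 and 0.0999 for Neat1, and Neat1 was also above it without the 8 h array, at 0.078.

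S100a6 and Car2 rose beyond a smaller early difference. S100a6, a calcium-binding protein gene, read 120.2, 121, 130.5, 204, 172 and 431, a rise of 1.14 ± 0.17 (adjusted p = 0.014 in limma). Car2, carbonic anhydrase 2, read 199, 218, 194, 401, 400.1 and 761, a rise of 0.90 ± 0.14 (adjusted p = 0.016 in limma). Both genes were ordered early, mid, late without overlap, but at 1.45-fold and 1.90-fold their early difference was below the 2-fold rule.

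Ctse, Akr1b8 and Dnmt3l rose at 24 h from a level near the early one. 1700030C10Rik, which also rose, read 142, 116, 155, 207, 185 and 452 and stood 1.39-fold above the early level at 8 and 12 h. Ctse, the protease cathepsin E, read 94.7, 99.7, 99.3, 112, 98.1 and 269, a rise of 1.24 ± 0.20 (adjusted p = 0.016 in limma). The aldo-keto reductase gene Akr1b8 read 352, 327, 370.1, 408, 379 and 692. Dnmt3l, the cofactor of de novo DNA methyltransferases, read 3820, 4157, 3961, 4237, 3797 and 6336, and its rise of 0.66 ± 0.12 had an adjusted p of 0.032 in limma. A second Dnmt3l probe gave 3812, 3593 and 5939 at 8, 12 and 24 h.

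Of the genes called lower, Gldc, the glycine decarboxylase of one-carbon metabolism, read 3538, 3210, 3220, 1957, 1904 and 1146. It fell by 0.74 ± 0.12 at 24 h (adjusted p = 0.020 in limma), so that early, mid and late arrays formed 3 separate levels. A second Gldc probe showed the same order, with 465, 467 and 274 on the late arrays. Mt1, a metallothionein that binds zinc and copper, read 5313, 5472, 5192, 6930, 6809 and 4582 and thus passed from above to below its early values. Tbl2 read 510, 546, 468, 413, 416 and 229.6, and Rab3a, a small GTPase of vesicle release, read 159, 179, 166, 148, 153 and 65.5.

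**Figure D4:**
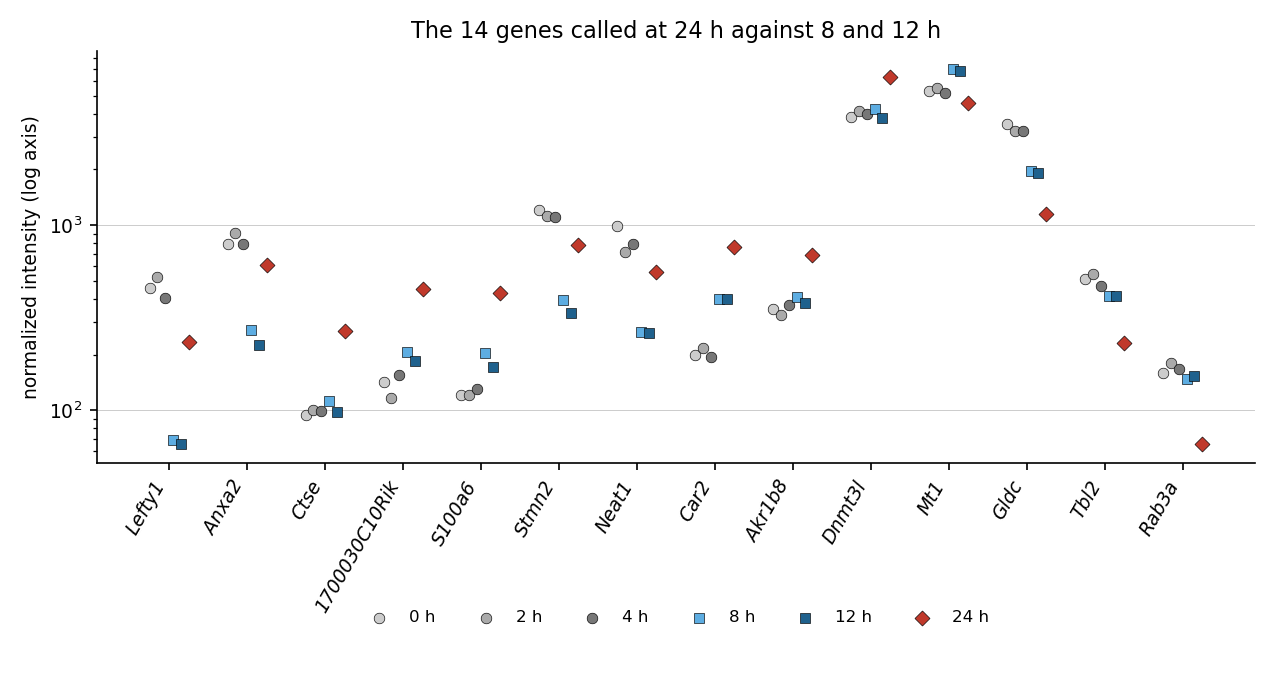
Normalized intensity (y axis, log scale) of the 14 genes called by limma at 24 h against 8 and 12 h, in order of their difference (x axis), with 1 symbol per array: grey circles for 0, 2 and 4 h, blue squares for 8 and 12 h, red diamonds for 24 h. The red diamond lies above both blue squares in the 10 genes on the left and below both in the 4 on the right.

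Genes that moved at 24 h alone were near their early level at 8 and 12 h and at least 1.5-fold from the early level, 8 h and 12 h at 24 h. There were 29, 0.494% of genes read, with 20 higher and 9 lower. Beside Ctse, Akr1b8 and 1700030C10Rik, the higher ones with the largest steps included Ric3, a chaperone of acetylcholine receptors, and Meis2, a homeobox cofactor. Ric3 read 38.6, 50.2 and 115 and Meis2 read 254, 199 and 472 at 8, 12 and 24 h. Ric3 was undetected at 0, 2 and 8 h. Another Ric3 probe, under the reading limit, gave 44.8, 49.3 and 58.2 at 8, 12 and 24 h. Its difference at 24 h from the mean of 8 and 12 h was 0.235, against 1.12 for the probe read. The linker histone gene H1f2, also read through the 24 h array alone, read 67.8, 67.3 and 131. Irak3, an inhibitor of Toll-like receptor signalling, read 161, 142 and 289. Sparc, a matrix glycoprotein gene, read 522, 523 and 808 against 459.9 to 548 early.

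On the lower side, beside Rab3a and Tbl2, Fanca, a Fanconi anaemia gene of DNA repair, read 318, 337 and 192, and Ell3, an elongation factor of RNA polymerase II, read 245, 272 and 148. Zc3h10, Dedd2, Slc27a2 and D930048N14Rik had 24 h values of 113, 106, 138 and 138, all below their 8 and 12 h values. A second Slc27a2 probe, at 86.4, 102 and 88.0, did not show this step. Of the 29 genes, 5 were called by limma. The reading limit itself favours some of these genes. Of the genes read, 124 reached 100 at 24 h alone, and 17 of them fell in a class. In the class described here these were Ccno, H1f2, Lef1, Miip, Plekhj1, Reep5, Ric3 and Tlr2. All of them are on the higher side, so the limit bears on the division into higher and lower genes.

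The actin, YAP, immediate early and epithelial junction lists held no gene called by limma. All 13 genes read of the actin and intermediate filament list stood above both 8 and 12 h at 24 h, beside 34.6% of all genes read. Cnn2 was among them by way of the reading limit, since it reached 100 at 24 h alone. The list median was 0.24 for 24 h against the mean of 8 and 12 h, beside -0.02 for all genes. Vim read 302, 338 and 469 and Cnn2 read 97.4, 82.1 and 157, and 3 of the 13 had an unadjusted limma p under 0.05. Ccn2, a matricellular target of YAP and TGF-beta, read 153, 247, 314, 455, 464 and 1177, with a limma adjusted p of 0.075. Egr1, an immediate early gene, read 97.9, 102 and 185 on the late arrays. Of 20 epithelial junction genes on the array, 7 were read. At 24 h 5 of these stood below both 8 and 12 h, beside 41.4% of all genes read, and 2 above both. Their median was -0.23 for 24 h against the mean of 8 and 12 h. Among those not read, Cldn4 gave 864, 281, 337, 58.1, 97.5 and 62.4 in order of time, and Tjp1 gave 66.8, 81.5, 58.7, 75.8, 75.6 and 93.3. Cdh1, the E-cadherin gene that Snail represses in epithelia, read 1064, 973, 980.2, 1049, 1080 and 882, a difference of -0.27 ± 0.13 at 24 h with an adjusted p of 0.42 in limma.

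The 3 stress lists, of ATF4, p53 and heat shock genes, held no gene called by limma. Of 15 genes read on the ATF4 and amino acid stress list, 9 stood below both, beside 41.4% of all genes read, and of 9 p53 targets 5 did. Relative to the early level, the list median was 0.10 for the 8 h array, 0.36 for the 12 h array and -0.15 for the 24 h array. Herpud1, of endoplasmic reticulum protein degradation, read 383, 556 and 276, and Trib3, a pseudokinase induced by stress, read 93.3, 171 and 63.0. Trib3 passed the reading limit through the 12 h array alone, so among the late arrays it had to be highest there. The p53 list had a median of 0.52, 0.56 and 0.31 on the late arrays. Bbc3, the cell death gene Puma, read 432, 576 and 338. The heat shock list was highest at 8 h, with medians of 0.30, 0.25 and 0.08, and Dnajb1 read 1718, 1683 and 1210. Genes of mitosis, DNA replication and cholesterol synthesis were in no class, with list medians of -0.08, -0.04 and 0.00 for 24 h against the mean of 8 and 12 h.

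**Figure D5:**
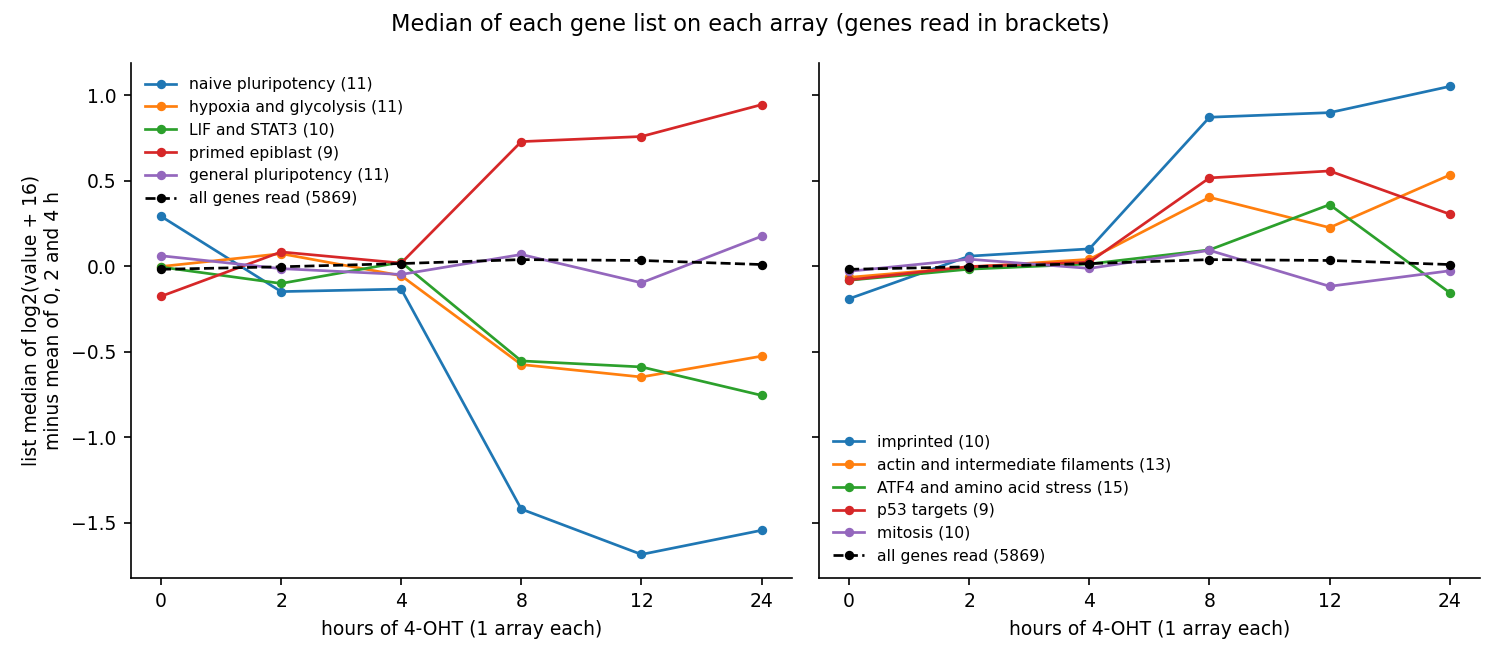
Median over the genes of a list (y axis, log2 difference from the mean of 0, 2 and 4 h) against hours of 4-OHT (x axis, equal steps, 1 array each), with the number of genes read in brackets and all 5869 genes as a dashed line. The naive pluripotency median stays between -1.42 and -1.68 from 8 to 24 h, the primed epiblast median is 0.95 at 24 h, and the ATF4 list is highest at 12 h.

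Counted by pairs of arrays, the step from 12 to 24 h was larger than that from 8 to 12 h. At least 1.5-fold differences numbered 116 higher (1.98%) and 104 lower (1.77%) for 24 against 12 h, and 94 higher (1.6%) and 99 lower (1.69%) for 24 against 8 h. For 12 against 8 h they numbered 21 higher (0.358%) and 65 lower (1.11%). Of those 65, 48 reached 100 only on the 8 h array, as did all 31 genes at least 2-fold lower at 12 than at 8 h. The 8 h array has the wider background of the late arrays, as given above, and its part in this count was not tested. The 3 pairs share arrays.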

How the data were processed

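Labelled RNA from the 6 samples was hybridised to Illumina bead arrays. The authors deposited a table of normalized intensity for 45281 probes, and a non-normalized table with an intensity and a detection p-value per probe and array, per the file headers, of which 32765 probes were used here. The submitters' processing notes name GenomeStudio, and the normalization steps are not given in the sources used here. Both tables name arrays by sample, with 0 unmapped columns.

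Negative normalized intensity was set to 0 before 16 was added and log2 taken. Gene symbols came from the platform annotation, where 34885 probes had 1 symbol, 18 several and 10378 none, and 34807 matched RefSeq. Where a gene had several probes (1673 genes), that with the top mean intensity across arrays stood for it. A probe was called detected at or above the lowest normalized intensity of a probe with detection p under 0.01 on that array, and "at least" folds use this limit. The limma contrast (limma 3.58.1, R 4.3.3, with an intensity trend) compared 24 h with the mean of 8 and 12 h on 3 residual degrees of freedom, with Benjamini-Hochberg adjustment over 5869 genes, and was tested on simulated data. The number of arrays limits the precision.

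Named genes were, per direction, the 8 largest late differences in each moving class, the 8 largest shifts in the settled class, the 8 lowest p-values among called genes, and members of 30 gene lists (380 genes, 193 read). The members and lists were chosen with earlier results of these data known. Alternatives covered the added constant, the reading limit, the table and its scaling, the probe choice, the model, the fold limits and each array left out. Python 3.11.15 and pandas 2.3.3 made the classes and counts.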

Additional observations from a re-analysis of the deposited data

How the results depend on the processing

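The called genes kept their direction under every alternative in which they were measured, and no named difference or shift changed direction. For many alternatives this was fixed beforehand. The limma difference uses the 8, 12 and 24 h arrays, so leaving out an early array does not alter it. Nor does another reading limit where the same probe is read. Each called gene lay beyond both 8 and 12 h at 24 h, so leaving out either array could not turn its direction. Of the values of named genes over all alternatives, 554 stayed on their side, 47 lost and 25 gained the limma threshold, and 14 values without a test moved. With 64 added in place of 16, 4 genes kept changing, 42 settled and 10 moved at 24 h alone. A reading limit of 200 left 16 genes at 24 h alone. With no limit limma called 546 genes, 129 settled, 16 returned and 213 moved at 24 h alone, and the cause was not tested. Restricting to probes of the non-normalized table gave 19 genes at 24 h alone, an alternative chosen after the data were examined. Median scaling of that table gave 2, 14, 3 and 5 genes for kept changing, settled, returned and 24 h alone. A late slope in the model called 5 genes. The 0 h array as the early level gave 13 genes that kept changing, and a 24 h limit of 2-fold gave 1, with 3 returned and 3 at 24 h alone. Leaving out 1 array gave 1 to 91 called genes, 7 to 13 that kept changing, 53 to 120 settled, 7 to 31 returned and 27 to 62 at 24 h alone. The highest class counts came without the 8 or 12 h array, where the rules need 1 array fewer. No paired analysis was possible because each time has 1 array.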

Other observations

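Some gene families outside the lists above were picked after their values were seen and are given with no test of the family. All 5 histone H2B genes read were lower at 8 and 12 h than early, with a median shift of -1.19. At 24 h 4 of 5 stood above both, beside 34.6% of all genes read, and H2bc21 did not, at 126, 121 and 125. H2bc7 read 311, 346, 290.5, 143, 116 and 182, and H2bc6 read 346, 399.5, 327, 144, 129 and 169. Of 7 H3 cluster genes, 5 were lower at 8 and 12 h and 5 stood above both at 24 h, with H3c6 at 452, 569, 452, 209.7, 235 and 283. H4c1 read 356, 347, 316, 167, 152 and 222. These genes are near-identical copies, so 1 transcript may feed several probes, and none was called by limma.

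All 5 annexin genes and all 3 S100a genes read were higher at 24 h than at both 8 and 12 h, from unlike shifts. For Anxa3 this was fixed by the reading limit, which it passed through the 24 h array alone. The shift at 8 and 12 h was -1.68 for Anxa2, 1.81 for Anxa3 and 0.07 for Anxa5, and 0.54 for S100a6 and -0.88 for S100a11. Anxa6 read 517, 524, 524, 444, 381 and 566, and S100a11 read 1907, 1134, 1227, 817, 684 and 983. Anxa2 and S100a6 were the genes called among these 8.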
